A study of Mus musculus with 12 samples.

Results

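Transthyretin (Ttr) and apolipoprotein E (Apoe) were followed through 5 pieces of the embryonic mouse cortex and the whole hemisphere. The members were all probe sets that the platform annotation gives the symbol Ttr or Apoe. They were 3 probe sets of 2 genes, among 12422 probe sets of 8251 genes that are not array controls. Ttr has 1 probe set (95350_at). Apoe has 2 (95356_at and 161321_i_at). The tissue was cerebral cortex of E16.5 mice (embryonic stage), cut into a medial, a dorsal, a ventral, a rostral and an occipital piece, with the undivided hemisphere as a further group. Each of these 6 groups has 2 arrays, which by the labels come from independent dissections, and no group carries a treatment or an engineered allele by the labels. Strain, sex and the number of embryos behind a dissection are not given in the sources used here. For the fourth piece the protocol text says lateral and the sample titles say rostral. The name of the titles is used here.

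Transthyretin is a secreted carrier of thyroxine and, through retinol-binding protein, of retinol. In the brain its main source is the epithelium of the choroid plexus, the sheet that makes cerebrospinal fluid and joins the hemisphere along the choroid fissure of its medial wall. Apolipoprotein E is a lipid carrier that astrocytes, radial glia, microglia and choroid plexus secrete, and that cells take up through lipoprotein receptors at their surface. A transcript of choroid plexus in a piece of cortex is therefore a possible sign of neighbouring tissue. The comparison asked whether the 2 genes were higher in the medial piece and whether other genes of the neighbouring tissues moved with them.

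Ttr had its highest mean in the medial piece and Apoe did not. Ttr was above the floor in the rostral and occipital pieces and the hemisphere too, and it was at the floor in the dorsal and ventral pieces. Apoe was brightest in the occipital and rostral pieces, intermediate in the medial and ventral pieces, and lowest in the dorsal piece. A joint rise of both genes at the midline was thus not what these arrays showed. In bulk pieces, fewer cells of a type and less RNA per cell cannot be told apart.

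The arrays were Affymetrix mouse U74A oligonucleotide arrays hybridised with cRNA made from poly(A)+ RNA. The deposited value is the average difference, a linear intensity that averages, over a probe set, how far the perfect-match probes exceed their mismatch partners, so that it can be negative. The floor was taken as the root mean square of the negative values, 694, and lower values were raised to it before log2. The 5832 probe sets that exceeded 1387, or 2 times the floor, on 2 or more arrays were tested. On each array 39.1% to 41.7% of the probe sets exceeded that threshold. All 13 of the 18 cortical marker genes that have a probe set were tested, and none of the 13 was at the floor on all 12 arrays. The beta-actin signal of the 5′ probe set, divided by that of the 3′ probe set, a sign of RNA quality, was between 0.804 and 0.887 on the replicate 2 arrays and between 0.604 and 0.831 on the replicate 1 arrays.

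The arrays did not all group by their labels. For 3 of the 12 arrays the closest array, by Pearson correlation over the tested probe sets, was the other replicate of its own group. Rostral replicate 2 and occipital replicate 1 were closest to each other (r = 0.963), above the r of 0.934 between the 2 rostral arrays and of 0.936 between the 2 occipital arrays. Medial replicate 1 and dorsal replicate 1 were also each other's closest (r = 0.965, against 0.934 between the 2 medial arrays), as were occipital replicate 2 and hemisphere replicate 2 (r = 0.969), and the 2 hemisphere arrays had the lowest r of a group, 0.901. The labels were kept. Several genes below put rostral replicate 1 with occipital replicate 2 and rostral replicate 2 with occipital replicate 1, and whether labels among these 4 arrays are exchanged was not tested. The rostral and occipital means hold only as far as those labels do, and the main results are also given without the 4 arrays.

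The 2 medial arrays had Ttr average differences of 2151 and 4564. In the dorsal piece they were 74.5 and 49.8, and in the ventral piece 329 and 84.2. The rostral arrays had 2058 and 971, the occipital arrays 1228 and 3527, and the hemisphere arrays 2382 and 2446. The 4 dorsal and ventral arrays were all under the floor, and the other 8 arrays were all above it, from 971 upward. Of these 8, rostral replicate 2 and occipital replicate 1 were under the threshold of 1387, so Ttr passed the filter through 6 of the 12 arrays.

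By mean average difference, Ttr was 3357 ± 1706 in the medial piece, 2414 ± 45.5 in the hemisphere, 2378 ± 1626 in the occipital piece and 1515 ± 768 in the rostral piece (SD, n = 2 each). Each neighbouring pair in this order overlapped. A gap of 643 separated the rostral from the ventral arrays. The ventral mean was 206 ± 173 and the dorsal mean 62.2 ± 17.5 (SD, n = 2 each), and values under the floor have no order. The replicates of a piece differed widely: the brighter array was 2.12 times the dimmer one in the medial piece, 2.12 times in the rostral piece and 2.87 times in the occipital piece, against 1.03 times in the hemisphere. The order also changed with the replicate. The medial array was the brightest of replicate 2, and the hemisphere array was the brightest of replicate 1, with the medial array next.

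Apoe is the brighter gene and varied less. Its average differences on probe set 95356_at were 5722 and 7280 in the medial piece, 2838 and 2689 in the dorsal piece, and 5209 and 7124 in the ventral piece. The rostral arrays had 8380 and 12554, the occipital arrays 10555 and 12127, and the hemisphere arrays 10013 and 7360. All 12 arrays were above the threshold, and the brightest array was 4.67 times the dimmest. The 2 dorsal arrays were below every other array. The other Apoe probe set, 161321_i_at, lay between -4.8 and 300.1, under the floor on all 12 arrays, and was not tested, so every Apoe result rests on 1 probe set.

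By mean average difference, Apoe was 11341 ± 1112 in the occipital piece, 10467 ± 2951 in the rostral piece and 8686 ± 1876 in the hemisphere (SD, n = 2 each), and neighbours among these overlapped. The medial mean was 6501 ± 1102 and the ventral mean 6167 ± 1355, and these overlapped each other. A gap of only 79.2 lay between the hemisphere and the medial arrays. The dorsal mean was 2763 ± 106, with a gap of 2371 to the ventral arrays. The order medial, ventral, dorsal at the low end was the same within each replicate, while occipital was highest in replicate 1 and rostral in replicate 2.

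**Figure D1:**
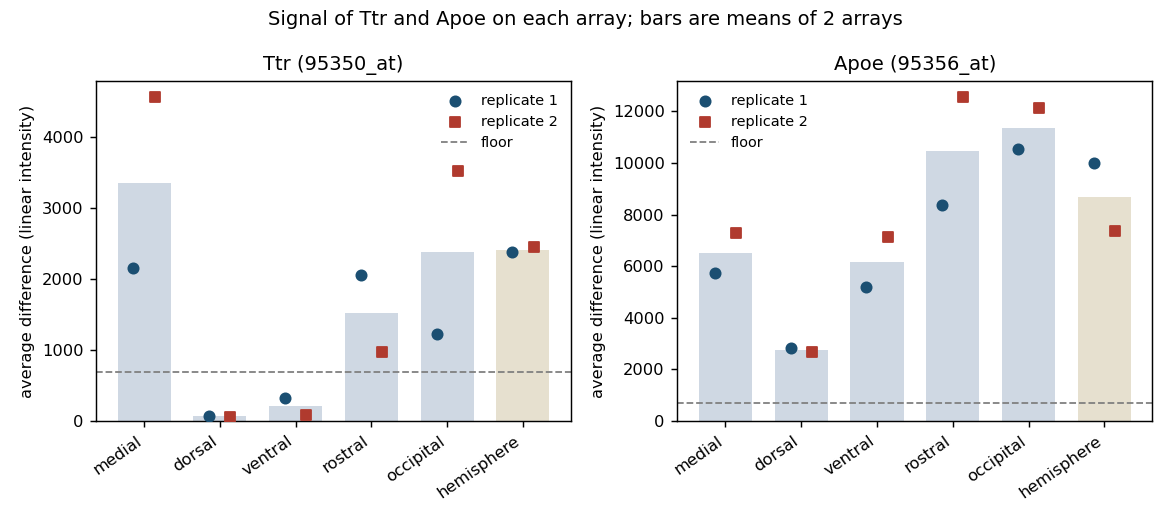
Average difference (linear, as deposited) of the Ttr probe set and of the Apoe probe set 95356_at on each of the 12 arrays, by group. Circles are replicate 1, squares replicate 2 and bars the mean of 2 arrays; the dashed line is the floor of 694. Ttr is under the floor on the 4 dorsal and ventral arrays, and the 2 dorsal arrays are the lowest for Apoe.

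Each piece was then set against the mean of the other 4 pieces with limma, with p-values adjusted over all 5832 probe sets. With the test over all 5 pieces, medial against hemisphere and replicate 2 against replicate 1, there were 8 comparisons. Ttr passed the threshold of 0.05 in 0 of 8 and Apoe in 2 of 8. Those 2 were the test over all 5 pieces and dorsal against the others, which share the dorsal arrays. Among all tested probe sets, 3.26% were called for a difference among the 5 pieces, 1.27% for medial, 0.274% for dorsal and 9.79% for ventral against the other pieces. For rostral and for occipital 0% were called, with 104 and 126 probe sets at an unadjusted p under 0.05.

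For Ttr, the medial piece averaged 3357 ± 1706 (SD, n = 2) and the other 4 pieces 1040 ± 1230 (SD, n = 8). The log2 difference was 1.52 ± 0.42 (SE), which is 2.87-fold on the floored scale, and the limma adjusted p was 0.134. It was the 8th largest positive difference of the 5832, and it was 1.03 in replicate 1 and 2.01 in replicate 2. Its size depends on the floor, because 4 of the 8 arrays it is set against were under it: it was 2.02 with the floor at 0.5 times its value and 0.94 with the floor at 2 times its value, and neither passed. Without the 4 rostral and occipital arrays the difference was 2.18, with a limma adjusted p of 0.0220, and 166 probe sets were called in place of 74. The same medial arrays were then set against dorsal and ventral arrays that are all at the floor.

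For the dorsal piece, Ttr averaged 62.2 ± 17.5 (SD, n = 2), against 1864 ± 1554 in the other 4 pieces (SD, n = 8). The log2 difference on the floored scale was -1.20 ± 0.42 (SE, limma adjusted p = 0.507). The ventral piece had the same log2 difference (limma adjusted p = 0.123), since both pieces were at the floor. These sizes depend on the floor and give no bound, because 2 of the 8 arrays set against either piece were also at the floor: each was -1.95 with the floor at 0.5 times its value and -0.53 at 2 times its value. The ventral difference passed with the lower floor (limma adjusted p = 0.0245) and without occipital replicate 1 (-1.39, limma adjusted p = 0.0434). The log2 difference was 0.09 for the rostral piece and 0.78 for the occipital piece, each with a limma adjusted p of 1.00. The test over all 5 pieces gave a limma adjusted p of 0.129 for Ttr, and of 0.0187 without the rostral and occipital arrays.

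Apoe differed among the pieces and fell in the dorsal one. The test over all 5 pieces gave F = 18.8 with a limma adjusted p of 0.0175, and 0.0488 without the rostral and occipital arrays. The dorsal piece averaged 2763 ± 106 (SD, n = 2), against 8619 ± 2820 (SD, n = 8) in the other 4 pieces. The log2 difference was -1.57 ± 0.21 (SE), or 2.98-fold lower, with a limma adjusted p of 0.0295. It was -1.34 in replicate 1 and -1.81 in replicate 2, and was the 13th most negative of the 5832. Both dorsal arrays lay below all 8 arrays of the other pieces, as did 2.01% of the tested probe sets (117).

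The direction of the dorsal difference held in all alternatives tried, and the call did not. The limma adjusted p was 0.398 without dorsal replicate 1 and 0.478 without dorsal replicate 2. It lay between 0.0505 and 0.0665 without either array of the medial, ventral or occipital piece, and 0.0246 and 0.0337 without a rostral array. Without the 4 rostral and occipital arrays, the brightest for Apoe, the log2 difference was -1.18 with a limma adjusted p of 0.105.

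In the medial piece Apoe was near the mean of the others. The log2 difference was -0.04 ± 0.21 (limma adjusted p = 0.972), and it was 0.65 (limma adjusted p = 0.177) without the rostral and occipital arrays, so its sign depends on them. The ventral difference was -0.15 (limma adjusted p = 0.735), and 0.53 without those arrays. The rostral and occipital differences were 0.79 ± 0.21 and 0.97 ± 0.21 (SE), each with a limma adjusted p of 1.00. The occipital difference had the third smallest p of all probe sets in a comparison where none passed.

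**Figure D2:**
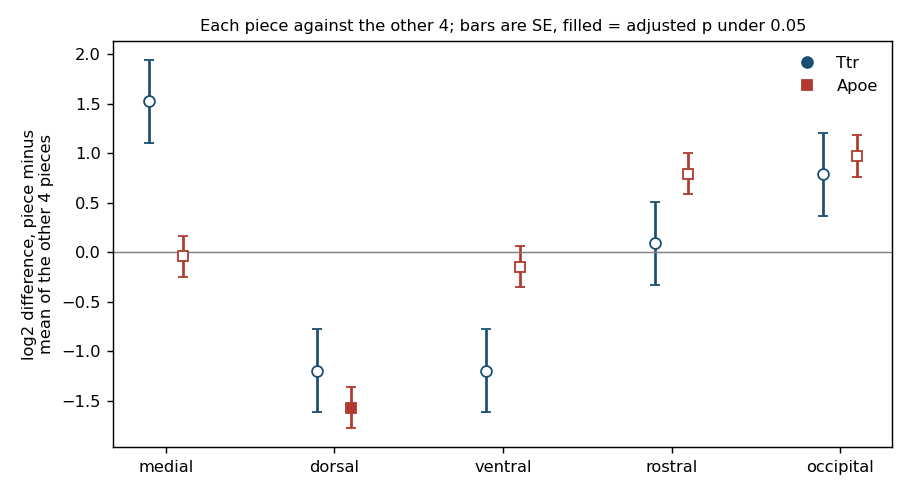
Log2 difference of each piece from the mean of the other 4 pieces, for Ttr and Apoe, with standard errors from limma. Filled points passed the threshold of 0.05 after adjustment over 5832 probe sets; among these comparisons it was passed by Apoe in the dorsal piece alone.

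The 10 pairs of pieces were also compared, a choice made after the values were seen. Ttr was called in 1 of 10 pairs and Apoe in 2 of 10. Medial against ventral, Ttr differed by 2.18 ± 0.53 on the log2 scale, at least 4.52-fold, with a limma adjusted p of 0.0314, in a pair where 11.2% of probe sets were called. Medial against dorsal, the log2 difference was the same, since all 4 lower arrays are at the floor. There the limma adjusted p was 0.374, and 0.0686% of probe sets were called. The medial against ventral call was lost with the floor at 2 times its value (log2 difference 1.18, limma adjusted p = 0.146) and with no filter (0.138). It was also lost without medial replicate 2 (limma adjusted p = 0.181) and without either array of the ventral piece (0.143 and 0.138) or of the dorsal piece (0.0539 each).

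For Apoe, dorsal was lower than ventral by a log2 difference of -1.14 ± 0.26 (limma adjusted p = 0.0425, 5.28% called) and lower than occipital by -2.03 ± 0.26, or 4.10-fold (limma adjusted p = 0.0367, 0.103% called). The first call was lost in 10 of 20 alternatives, with a limma adjusted p of 0.0566 without the rostral and occipital arrays, 0.129 with no filter and up to 0.240 without single arrays, the highest without ventral replicate 2. The second was lost in 10 of 19, with 0.162 with no filter and up to 0.509 without single arrays, the highest without dorsal replicate 2. Dorsal against rostral the difference was -1.89 with a limma adjusted p of 0.0642 (0.0686% called). In the remaining pairs the share of probe sets called was 0.0171% for medial against rostral, 0.0686% for medial against occipital, 1.58% for ventral against rostral and 1.29% for ventral against occipital. Rostral against occipital 0% were called, with 62 probe sets at an unadjusted p under 0.05, and there Ttr differed by 0.74 in replicate 1 and by -1.86 in replicate 2.

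The hemisphere holds all the pieces and served as a check. Medial against hemisphere, the log2 difference of Ttr was 0.38 ± 0.53 (limma adjusted p = 0.901) and that of Apoe -0.41 (limma adjusted p = 0.737), where 0.0686% of probe sets were called. The hemisphere's Ttr mean of 2414 was 1.61 times the mean of the 5 pieces, 1504. For Apoe the hemisphere mean of 8686 was 1.17 times the pieces' mean of 7448. Replicate 2 against replicate 1, 17.2% of all probe sets were called, but Ttr (log2 difference 0.26, limma adjusted p = 0.561) and Apoe (0.18, limma adjusted p = 0.385) were not.

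Other genes of the choroid plexus were read beside Ttr. Of 40 genes in the list, 29 have a probe set and 11 were tested, and 13 were at the floor on all 12 arrays. Among those 13 were Kl, which encodes the coreceptor klotho, Calml4, a calmodulin-like protein, Htr2c, a serotonin receptor of the plexus, and Cldn2, a tight junction protein of its epithelium. Enpp2, Clic6, Kcnj13, Otx2, Prlr and Sostdc1 have no probe set under those symbols. In the medial piece 1 of the 11 was called higher and 0 lower, where 1.27% of all tested probe sets were called, and the median log2 difference was 0.28, against 0.02 over all tested probe sets.

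The gene called was Ezr, which encodes ezrin, a linker of membrane and actin found at the apical face of many epithelia. Its average differences were 8789 and 7379 in the medial piece. The dorsal arrays had 5976 and 5138, the ventral arrays 1672 and 1406, the rostral arrays 4428 and 6277, the occipital arrays 5923 and 3878, and the hemisphere arrays 3914 and 4608. The medial log2 difference was 1.07 (limma adjusted p = 0.0469). This call kept its direction and was lost in 11 of 20 alternatives, with a limma adjusted p of 0.328 without medial replicate 1 and 0.262 without medial replicate 2. Without the rostral and occipital arrays it was 1.47 (limma adjusted p = 0.0170). Unlike Ttr, Ezr was well above the floor in the dorsal piece.

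Folr1, the folate receptor of choroid plexus epithelium, stayed under the threshold on all 12 arrays. It had 671 and 1251 in the medial piece, 154 and 67.6 in the dorsal piece, 1094 and -129.9 in the ventral piece, 667 and 1180 in the rostral piece, 776 and 684 in the occipital piece and 969 and 1081 in the hemisphere. Aqp1, the water channel of the epithelium, had 654 and 3321 in the medial piece, the lowest and the highest of the 12 values, and its log2 difference there was 0.07 (limma adjusted p = 0.979). Igfbp2, an IGF binding protein that the plexus and other cells make, had 15554 and 17379 in the medial piece and a log2 difference of 0.21 (limma adjusted p = 0.491). Cd9, a tetraspanin of many cell types, had 5727 and 3885 there, with a log2 difference of 0.98 (limma adjusted p = 0.152). Of the 10 tested genes other than Ttr, 7 had a positive medial difference and 3 a negative one. Over all tested probe sets 52.9% were positive. The negative ones were Cdh1 (-0.22), Slc12a2 (-0.08) and Foxj1 (-0.01).

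The summed average difference of the 10 tested choroid plexus genes other than Ttr was 44060 and 46567 in the medial piece, above the other 10 arrays. It was 38311 and 35617 in the dorsal piece, where Ttr was at the floor, and 28804 and 28360 in the ventral piece. It was 37000 and 40145 in the rostral piece, 41212 and 38074 in the occipital piece, and 35024 and 37320 in the hemisphere. These sums include Ezr, the gene already called in the medial piece, with 8789 and 7379 there against 5923 and 3878 in the occipital piece. The high medial sums are therefore no result separate from Ezr. Igfbp2 makes up the greatest part of these sums, with 15554 and 17379 in the medial piece and 16852 and 16082 in the dorsal piece. Igfbp2 fell in the ventral piece (log2 difference -0.48, limma adjusted p = 0.0335), as did Ezr (-1.92, limma adjusted p = 0.00135). The ventral call of Ezr held in all 20 alternatives and that of Igfbp2 in 10 of 20, in a comparison where 9.79% of all probe sets were called. The part of choroid plexus tissue in the Ttr values was not tested beyond these genes.

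The list of the cortical hem and medial pallium, the strip beside the choroid plexus, had 6 tested genes, and 12 of its genes were at the floor on all arrays, Wnt3a, Wnt2b and Wnt5a among them. In the medial piece 0 of the 6 were called in either direction, where 1.27% of all tested probe sets were called, with a median log2 difference of 0.47. In the dorsal piece 0 were called, all 6 differences were negative and the median was -0.50. Of all tested probe sets 0.274% were called there and 46.8% were negative. Of the 14 tested genes of meninges and fibroblasts, 0 were called in the medial or the dorsal piece. Of the 5 tested genes of endothelium, mural cells and blood, 0 were called in any piece. Of all tested probe sets 9.79% were called for the ventral piece and 0% for the rostral and for the occipital piece. With 5 genes, 0 calls are thus no result about them. Calb2, which encodes calretinin, fell in the dorsal piece (log2 difference -1.91, limma adjusted p = 0.0391). It was 1 of 5 tested Cajal-Retzius genes, where 0.274% of all tested probe sets were called, and its call held in 6 of 20 alternatives.

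**Figure D3:**
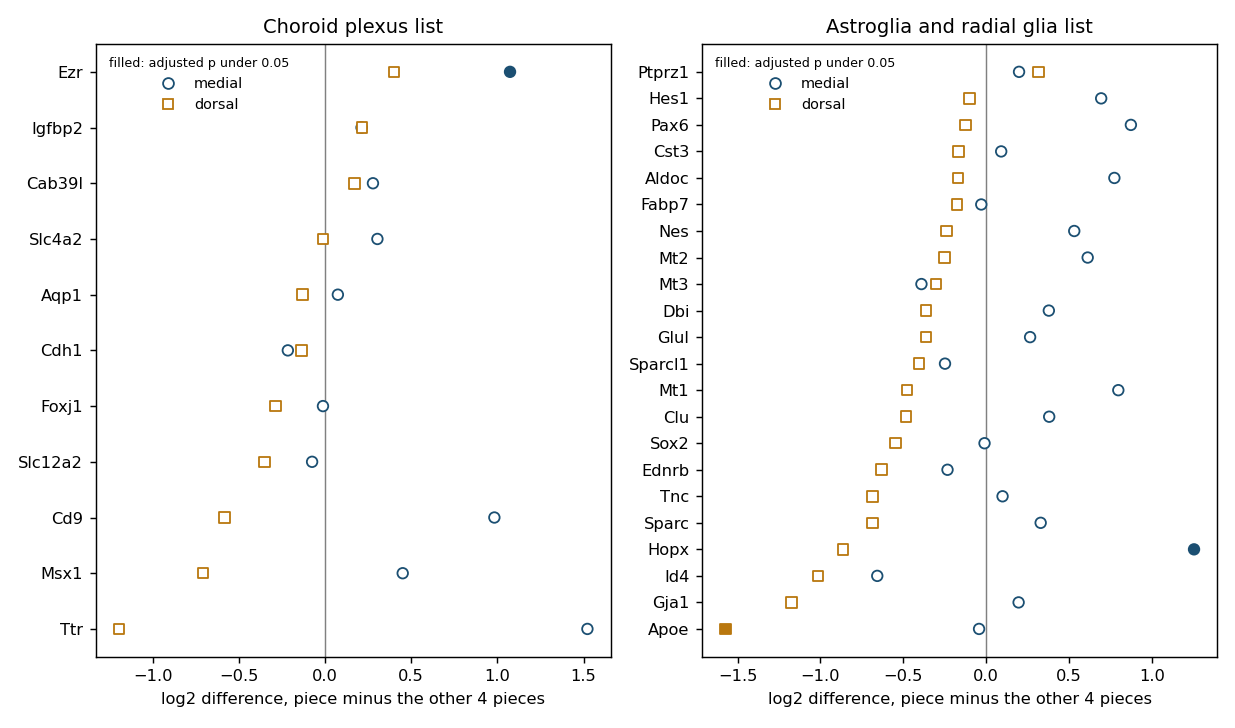
Log2 difference of every tested gene of the choroid plexus list and of the astroglia and radial glia list from the other 4 pieces, with circles for the medial and squares for the dorsal piece; filled points passed the threshold. Ttr has the highest medial difference of its list (1.52) without passing, and in the dorsal piece 21 of 22 glial genes, Apoe among them, are negative.

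Apoe is also a gene of astroglia and radial glia, and 22 of the 34 genes of that list were tested. In the dorsal piece 1 was called lower, which is Apoe itself, and 0 higher, where 0.274% of all tested probe sets were called. Of the 21 without Apoe, 20 had a negative difference, with a median of -0.36, where 46.8% of all tested probe sets were negative and the median was 0.02. The next most negative were Gja1, a gap junction protein of astroglia (-1.17, limma adjusted p = 0.359), and Id4, an inhibitor of DNA binding (-1.01, limma adjusted p = 0.461). The Gja1 value is that of its brightest probe set. Another tested Gja1 probe set had a smaller dorsal difference of -0.33 (limma adjusted p = 0.999). Its mean over the 12 arrays was 646, under the floor. The summed average difference of the 21 was 169638 and 176358 in the dorsal piece, below the other 10 arrays, which ran from 181974 to 236765. The list was low in the ventral piece too, where Apoe was near the other pieces. There 16 of the 21 were negative, with a median of -0.26, and 52.2% of all tested probe sets were negative. Of the 21, 2 were called lower, which is near the share of all tested probe sets called there, 9.79%. Gfap, S100b and Slc1a2, genes of mature astrocytes, were at the floor on all 12 arrays. The part of glial content in the dorsal Apoe value was not tested beyond these genes.

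Single glial genes of the list differed in the size of their dorsal and medial differences. Fabp7, the lipid-binding protein of radial glia, had 45212 and 46347 in the dorsal piece, with a log2 difference of -0.17 (limma adjusted p = 0.999). Hopx, an atypical homeodomain protein of radial glia, had 8015 and 6480 in the medial piece. Its log2 difference there was 1.26 (limma adjusted p = 0.0187), a call lost without either medial array and in 3 other alternatives. Without the rostral and occipital arrays it was 1.54 (limma adjusted p = 0.0170). Its dorsal arrays had 2332 and 2124. Clu, which encodes clusterin, a lipid-carrying chaperone, had 4517 and 4920 in the medial piece and 2890 and 2948 in the dorsal piece, and neither difference passed (0.38, limma adjusted p = 0.182, and -0.48, limma adjusted p = 0.219).

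Microglia are another source of Apoe, and 8 of 24 genes of their list were tested. In the dorsal piece 5 of the 8 differences were negative, the median was -0.03, and 1 gene was called higher and 0 lower, where 0.274% of all probe sets were called. The gene called was Ccl4, a chemokine, with 2746 and 3822 in the dorsal piece and values under the floor on the other 10 arrays (log2 difference 2.22, limma adjusted p = 0.000394). Ccl4 passed the filter only through those 2 dorsal arrays, so its call describes the arrays that let it be tested. Csf1r, the receptor that microglia need, had 1720 and 1324 in the dorsal piece (-0.05), and C1qa, a complement subunit, had 1370 and 1512 there (-0.14). C1qc, its partner subunit, had 1294 and 677 (-0.45), and Cx3cr1, the fractalkine receptor, 1697 and 896 (-0.38). These 4 are among the 5 negative genes, and 3 of the 8 were positive, Ccl4 among them. The limma adjusted p of each of the 4 was 0.999. The summed average difference of the 8 genes was 25338 and 26633 in the dorsal piece and between 19953 and 27000 on the other arrays. The part of microglial content in the dorsal Apoe value was not tested.

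Of the lipoproteins, their receptors and cholesterol transporters, 18 of 43 genes were tested. In the dorsal piece Apoe was the only one called, where 0.274% of all tested probe sets were, and the median log2 difference was 0.01. In the medial piece 0 were called, where 1.27% of all tested probe sets were. Among carriers, Apod, Apoa1, Apob and Apoc1 were at the floor on all 12 arrays. Among receptors, Lrp1 had 6462 and 9520 in the medial piece and 9326 and 10722 in the dorsal piece, with log2 differences of -0.39 (limma adjusted p = 0.565) and 0.05 (limma adjusted p = 0.999). Lrpap1, the chaperone of these receptors, had 4711 and 4824 in the dorsal piece (0.21, limma adjusted p = 0.999). Vldlr, a receptor for reelin and Apoe, stayed under the threshold, at 703 and 697 in the medial piece and 735 and 946 in the dorsal piece. Lrp8 has no probe set under that symbol.

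Abca1, the transporter that loads Apoe with cholesterol, had 1950 and 1559 in the dorsal piece (0.06, limma adjusted p = 0.999). Lpl, lipoprotein lipase, had 9341 and 9303 in the dorsal piece and 9075 and 6781 in the medial piece, against 3218 and 2621 in the ventral piece. Its log2 difference was 1.07 in the dorsal piece (limma adjusted p = 0.744) and 0.76 in the medial piece (limma adjusted p = 0.555). Its rostral arrays had 7893 and 2683 and its occipital arrays 2044 and 6787, so that the low rostral array and the low occipital array were the pair that resembled each other.

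Of the carriers, enzymes and receptors of thyroid hormone and retinoids, the ligands of transthyretin, 9 of 36 genes were tested. In the medial and the dorsal piece 0 were called, where 1.27% and 0.274% of all tested probe sets were. Rbp4, the retinol-binding protein that docks on transthyretin, was under the threshold on all arrays, with 996 and 241 in the medial piece and values of -146.6 to 427 elsewhere. Thra, the main thyroid hormone receptor of fetal brain, had 44487 and 53960 in the medial piece and a log2 difference of 0.03 (limma adjusted p = 0.968). Lrp2, which encodes megalin, was at the floor on all 12 arrays. Dio3 has no probe set under that symbol. In the ventral piece 1 of the 9 was called, where 9.79% of all probe sets were. It was Crabp1, a retinoic acid binding protein, with 3472 and 2708 (log2 difference 2.09, limma adjusted p = 0.000882). Besides the 2 ventral arrays, 1 hemisphere array (1705) was above the threshold, so Crabp1 passed the filter through the arrays in which it was called.

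Crym, a thyroid hormone binding protein of the cytosol, had a pattern close to that of Ttr. It had 4705 and 4357 in the medial piece, and was under the floor on the 4 dorsal and ventral arrays, with values of -139.2 to 119. The rostral arrays had 4974 and 295, the occipital arrays 67.3 and 4191, and the hemisphere arrays 1815 and 2020. Its medial log2 difference was 2.03 with a limma adjusted p of 0.242. Crym and Ttr were both higher on rostral replicate 1 and occipital replicate 2 than on rostral replicate 2 and occipital replicate 1.

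The genes most like each member were ranked by Pearson correlation of floored log2 values over the 12 arrays, which share their normalisation and hold 2 arrays per group. For Ttr they were Clu (r = 0.894), Htra1, a secreted serine protease (0.886), Crym (0.885), Pagr1a (0.876), Slc9a3r1, a partner of ezrin (0.876), and Acaa2, a mitochondrial thiolase (0.861). Htra1 had 4663 and 3788 in the medial piece, 668 and 750 in the dorsal piece and 565 and 703 in the ventral piece. Slc9a3r1 had 4186 and 5045 in the medial piece, 2376 and 2734 in the dorsal piece and 3261 and 2994 in the ventral piece. Both were picked by their likeness to Ttr over these same arrays, so their low dorsal and ventral values are no separate result. Slc9a3r1 stayed well above the floor there.

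For Apoe the most alike genes were St6galnac5, a sialyltransferase of gangliosides (r = 0.846), Cadm1, a synaptic adhesion molecule (0.809), Rhoc, a small GTPase (0.789), Slc25a39, a mitochondrial carrier (0.776), Zic1, a zinc finger factor of the septum and meninges (0.776), and Efhd2, a calcium-binding protein (0.772). St6galnac5 had 632 and 721 in the dorsal piece, the lowest of its values, and 2151 and 1812 in the medial piece. Zic1 had 599 and 907 in the dorsal piece, 3108 and 3436 in the medial piece and 6841 and 7453 in the ventral piece. Its rostral arrays had 3284 and 22097 and its occipital arrays 20733 and 2878, so the array that was bright for Zic1 in either piece was the one that was dim for Ttr and Crym. By Pearson correlation the 2 members were less alike: Ttr and Apoe had r = 0.518 over the 12 arrays. By Spearman correlation this did not hold for every gene. Ttr and Apoe had a rho of 0.516, above that of Apoe with St6galnac5 (0.490) and with Zic1 (0.503). The highest rho of the 6 genes with Apoe was 0.755, for Rhoc.

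**Figure D4:**
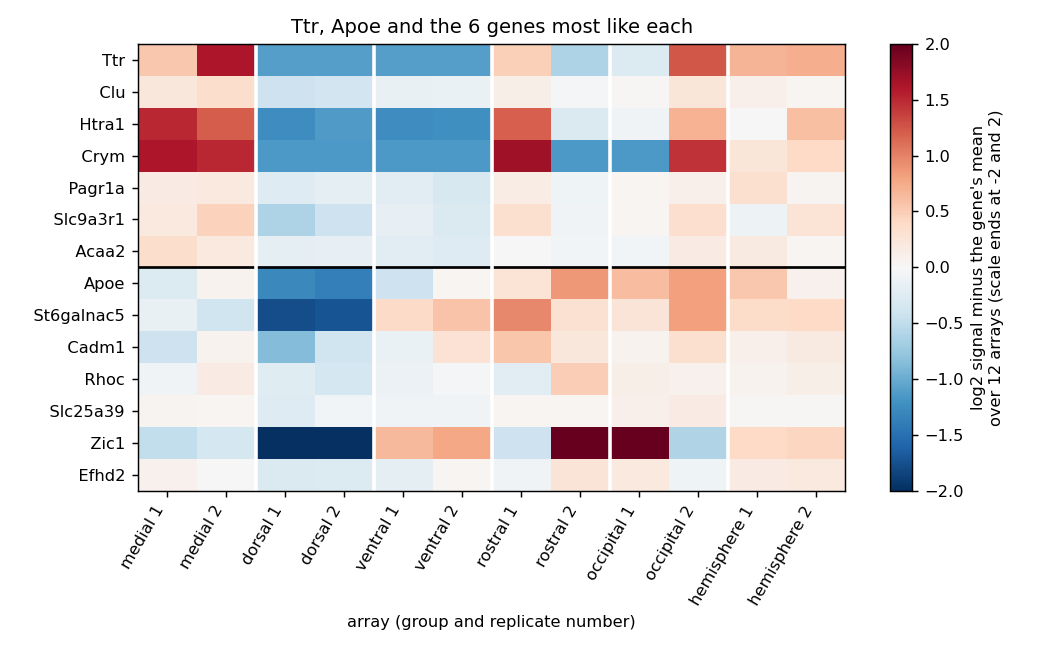
Floored log2 average difference on the 12 arrays, centred on each gene's mean, for Ttr and Apoe and the 6 genes most like each. The Ttr set is low on the 4 dorsal and ventral arrays, and the Apoe set is low on the 2 dorsal arrays. Each set was picked by likeness to its member on these arrays, so these lows are no separate result.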

How the data were processed

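Poly(A)+ RNA, per the labels' protocols (the molecule label says total RNA), was hybridised to 12 arrays, each scanned 2 times, and replicates were independent dissections. The deposited values are linear intensities, the authors' average differences. The authors had scaled each array, since the 2% trimmed means as deposited were 2501.6 to 2501.9. Per the labels, whose analysis text is cut short, the software is not given in the sources used here. No further scaling was applied, and the number of arrays limits the precision.

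Of 12488 probe sets, 66 controls were left out, and 5832 passed the filter. The platform annotation gives 5292 of these exactly 1 symbol (4562 genes). A RefSeq table (GRCm38.p6), matched by gene ID, changed 0 symbols. Floored log2 values were fitted in R 4.3.3 with limma 3.58.1, with a mean for each of 6 groups, 6 residual and 2.86 prior degrees of freedom. Two-sided p-values were adjusted over the 5832 (Benjamini-Hochberg). A fold between a pair of pieces is a lower bound where the lower piece was at the floor. The fit was tested on simulated data.

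The members, 10 gene lists, filter and naming rule were chosen with earlier results of these data known. The rule named all member probe sets, list genes past the threshold in the medial piece with the same sign in both replicates, a set of choroid plexus, lipoprotein and hormone carrier genes, and the 6 genes most alike per member. Genes called in other pieces, and Cd9, Cdh1, Slc12a2, Foxj1, Gja1, Id4, Fabp7, Csf1r, C1qa, C1qc and Cx3cr1, were named after their values were seen. A gene with several probe sets is shown by the brightest. The alternatives changed the floor, filter, normalization, variance model, replicate block, samples in the fit and single arrays left out. The pairs of pieces and the fit without rostral and occipital arrays were added after the values were seen. No sequence or coordinate is printed.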

Additional observations from a re-analysis of the deposited data

How the results depend on the processing

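Apoe in the dorsal piece kept its sign in all 20 alternatives and its call in 10. Its log2 difference was -1.57 (limma adjusted p = 0.114) with no filter, where more probe sets are tested, -1.18 without the rostral and occipital arrays, and -1.65 to -1.50 without single arrays. The limma adjusted p of Apoe over the 5 pieces was 0.0867 with no filter and 0.0198 to 0.0975 without single arrays, and missed the threshold in each fit that lacked a dorsal or a ventral array. That of Ttr was 0.0306 with the floor at 0.5 times its value, 0.0187 without the rostral and occipital arrays and 0.0554 to 0.406 without single arrays. Ttr in the ventral piece passed at -1.95 with the lower floor, and single arrays gave -1.39 to -1.01. Ttr in the medial piece was 2.18 without the rostral and occipital arrays and 0.98 to 2.06 without single arrays.

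Signs turned where a difference was near 0. The Apoe difference in the medial piece was 0.65 without the rostral and occipital arrays, 0.13 without medial replicate 1, 0.014 without ventral replicate 2 and 0.030 without rostral replicate 2, and single arrays gave -0.22 to 0.13. In the ventral piece it was 0.53 without the rostral and occipital arrays, and single arrays gave -0.37 to 0.079, the highest without ventral replicate 1. Ttr in the rostral piece was -0.18 with the floor at 2 times its value, -0.048 without medial replicate 1, -0.45 without rostral replicate 1 and -0.10 without occipital replicate 1, and reached 0.63. Ttr in the medial piece against the hemisphere was -0.17 to 0.92, the lowest without medial replicate 2. The cause was not tested.

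The replicate numbers were not used as pairs, because the labels do not tie them to a shared dissection and not every pair of groups deviated together. Deviations correlated above 0.1 in 14 of 15 pairs of groups, with a median of 0.411, and the exception was rostral with occipital (-0.06). The replicate block changed the call of neither member. With it, 442 probe sets were called over the 5 pieces, 256 for medial, 45 for dorsal, 938 for ventral and 21 for medial against hemisphere. With no filter the counts were 124 over the 5 pieces, 3 for rostral, 4 for occipital, 13 for medial against hemisphere and 174 between replicates. With the region arrays alone they were 124 for medial, 7 for dorsal and 477 between replicates, and without the rostral and occipital arrays 383 over the pieces, 166 for medial, 28 for dorsal, 18 for medial against hemisphere and 605 between replicates. The floor at 0.5 times its value gave 7 for dorsal. Medial against hemisphere, 1 was called with the floor at 2 times its value, 7 with quantile normalization and 9 with trend and robust variances. Without single arrays the counts were 11 to 234 over the pieces, 0 to 124 for medial, 2 to 16 for dorsal, 91 to 653 for ventral, 0 to 9 for medial against hemisphere and 240 to 1119 between replicates.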

Other observations

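The genes next to Apoe in the RefSeq order of genes did not share its dorsal level. Tomm40, a subunit of the mitochondrial import pore and the next gene on one side, averaged 3545 in the dorsal piece, against 3772 in the medial, 3790 in the ventral, 3050 in the rostral and 3517 in the occipital piece. Its dorsal log2 difference was 0.007 (limma adjusted p = 0.999). Nectin2, an adhesion molecule beyond it, had -0.24 (limma adjusted p = 0.967), and Clptm1, on the other side, -0.20 (limma adjusted p = 0.997). The apolipoprotein genes Apoc1, Apoc4 and Apoc2, between Clptm1 and Apoe, did not pass the filter. These neighbours were chosen after the Apoe values were seen.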
